A study of Mus musculus with 3 samples.

Results

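Nuclei of dorsal root ganglia (DRG), which house the cell bodies of sensory neurons, were chosen by their UMI counts (unique molecular identifiers, 1 per captured transcript) of 5 genes of the itch neurons that carry the peptides somatostatin (Sst) and natriuretic peptide B (Nppb). A barcode with more than 1000 detected genes and at least 0.5% of its UMIs from Malat1, a nuclear RNA, entered the gate when it held 4 or more UMIs from at least 2 of Sst, Nppb, Il31ra, Cysltr2 and Osmr. This sum also had to exceed the UMIs of 7 genes of other sensory neurons (Mrgprd, Lpar3, Tafa4, Adcyap1, Nxph1, Chrna7 and Trpm8). Of 19259 barcodes with more than 1000 genes, 1174 passed. They comprised 550 of 11518 in the adult library, 401 of 5130 in the first aged one and 223 of 2611 in the second. Wherever 3 values stand together below, they follow this order. No gated barcode occurred in more than 1 library.

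The study sequenced nuclei of L3, L4 and L5 ganglia of wild type C57BL/6 mice, with PIP-seq, a droplet method that needs no microfluidic chip. One library came from adult mice of 3 months and 2 from aged mice of 21 months, by the sample labels, and the labels name no treatment. The design text of the series states a lower age for the older group. All samples are labelled male, whereas the study's methods list the aged mice as female. How many mice made up a library is not given in the sources used here. A gated nucleus is no replicate, so ages were compared over 1 adult and 2 aged libraries, and nothing shows the spread between adult libraries.

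Itch neurons of this kind are unmyelinated sensory neurons that detect pruritogens in the skin and signal to the spinal cord through Nppb, whose receptor marks a set of dorsal horn interneurons. Sst is co-released and inhibits dynorphin interneurons that restrain itch. Il31ra and Osmr form the receptor of interleukin 31, a cytokine of T helper cells, which acts through Jak1 and STAT proteins. Cysltr2 is a receptor of cysteinyl leukotrienes, and Htr1f, a serotonin receptor, is a further marker of these neurons that the gate did not use.

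The stretches before the RefSeq starts of Sst and Nppb (GRCm38.p6, 250 bases each) are shown for the 2 peptides that give these neurons their name. Capitals mark the cAMP response element TGACGTCA, which reads the same on both strands. The Sst stretch lies at chr16:23890845-23891094 on the minus strand and the Nppb stretch at chr4:147985650-147985899 on the plus strand.
Sst: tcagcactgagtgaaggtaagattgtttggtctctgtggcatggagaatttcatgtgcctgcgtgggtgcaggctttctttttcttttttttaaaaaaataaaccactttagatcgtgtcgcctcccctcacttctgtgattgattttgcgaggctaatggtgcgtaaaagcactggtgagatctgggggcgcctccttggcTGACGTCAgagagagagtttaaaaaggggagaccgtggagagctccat
Nppb: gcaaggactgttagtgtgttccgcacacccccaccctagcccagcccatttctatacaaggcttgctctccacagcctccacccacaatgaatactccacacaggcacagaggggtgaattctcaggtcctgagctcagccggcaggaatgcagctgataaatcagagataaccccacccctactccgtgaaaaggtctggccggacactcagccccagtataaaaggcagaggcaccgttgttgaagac
The element began 48 bases before the Sst start. Of 32851 such stretches in RefSeq, 508 (1.55%) held it, and these letters were not in the stretches of Nppb, Il31ra, Cysltr2, Osmr or Htr1f.

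Most gated nuclei held no UMI of either peptide in the label, and a nucleus without a UMI may still express the gene. Il31ra was the gene that nearly all of them shared, with a UMI in 100%, 99.5% and 99.6% of gated nuclei. Osmr had a UMI in 76.5%, 84.3% and 83.4%, and Cysltr2 in 31.8%, 31.9% and 42.6%. The peptides were seen less often. A Sst UMI was seen in 104 of 550 adult nuclei, 18.9% (exact 95% interval 15.7 to 22.4%). The aged libraries had 68 of 401, 17.0% (13.4 to 21.0%), and 29 of 223 (8.89 to 18.1%). Nppb had one in 13.1%, 13.5% and 13.9%. Neither peptide was seen in 75.5%, 76.8% and 80.3% of the gated nuclei, and the pair Il31ra and Osmr alone made up the gate sum in 56.0%, 57.1% and 51.1%. These genes chose the nuclei, so their values are a description, and the intervals cover counting error only.

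Il31ra was spread over all kinds of barcodes. In gated nuclei it stood at 822, 483 and 569 CPM (the UMIs of a gene in a set scaled to a common total). In free RNA, the pooled UMIs of barcodes under 100 UMIs, it stood at 1342, 1122 and 1396 CPM, above the gated nuclei in each library. In nuclei outside the neuron gate, which asks for 5 or more UMIs from 3 or more of 12 pan-neuronal genes and for more of these than of 55 genes of other cell types, it stood at 437, 259 and 258 CPM. An Il31ra UMI was seen in 59.5%, 48.3% and 50.8% of these non-neuronal nuclei (median 2858, 3678 and 3978 UMIs) and in 85.0%, 75.9% and 78.0% of neuronal nuclei outside the itch gate (median 6141, 5557 and 8430 UMIs). With each nucleus thinned to 2000 UMIs, the shares with Il31ra were 75.6%, 61.9% and 61.0% in gated nuclei, 52.1%, 40.5% and 36.7% in the other neuronal nuclei and 45.3%, 28.5% and 29.7% in non-neuronal ones. In the GENCODE M21 annotation Il31ra (chr13:112519898-112594360, minus strand, mm10 build) overlaps the processed pseudogene Gm3226 by 618 bases on the same strand, and Gm3226 has no row in the count tables.

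Sst and Nppb were rare outside the gate, in part because a nucleus that holds them is moved into it. Sst had a UMI in 0.93%, 0.91% and 1.78% of the other neuronal nuclei and in 0.51%, 0.63% and 0.74% of non-neuronal ones. The nuclei that met the gate without Il31ra (4 or more UMIs from at least 2 of Sst, Nppb, Cysltr2 and Osmr) numbered 76, 67 and 44, or 13.8%, 16.7% and 19.7% of the gated nuclei. This subset was defined after the values of Il31ra had been seen. It is called the set without Il31ra below, though 100%, 97.0% and 97.7% of its nuclei held an Il31ra UMI. Il31ra stood at 1702, 921 and 1295 CPM in it, above the other neuronal nuclei (387, 244 and 202 CPM) in each library and above free RNA in the adult one. In it, 71.1%, 53.7% and 43.2% of nuclei held a Sst UMI and 60.5%, 52.2% and 40.9% a Nppb UMI, both from genes that chose it. Of this subset 94.7%, 85.1% and 81.8% also passed the neuron gate, against 70.5%, 62.8% and 64.1% of all gated nuclei.

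**Figure D1:**
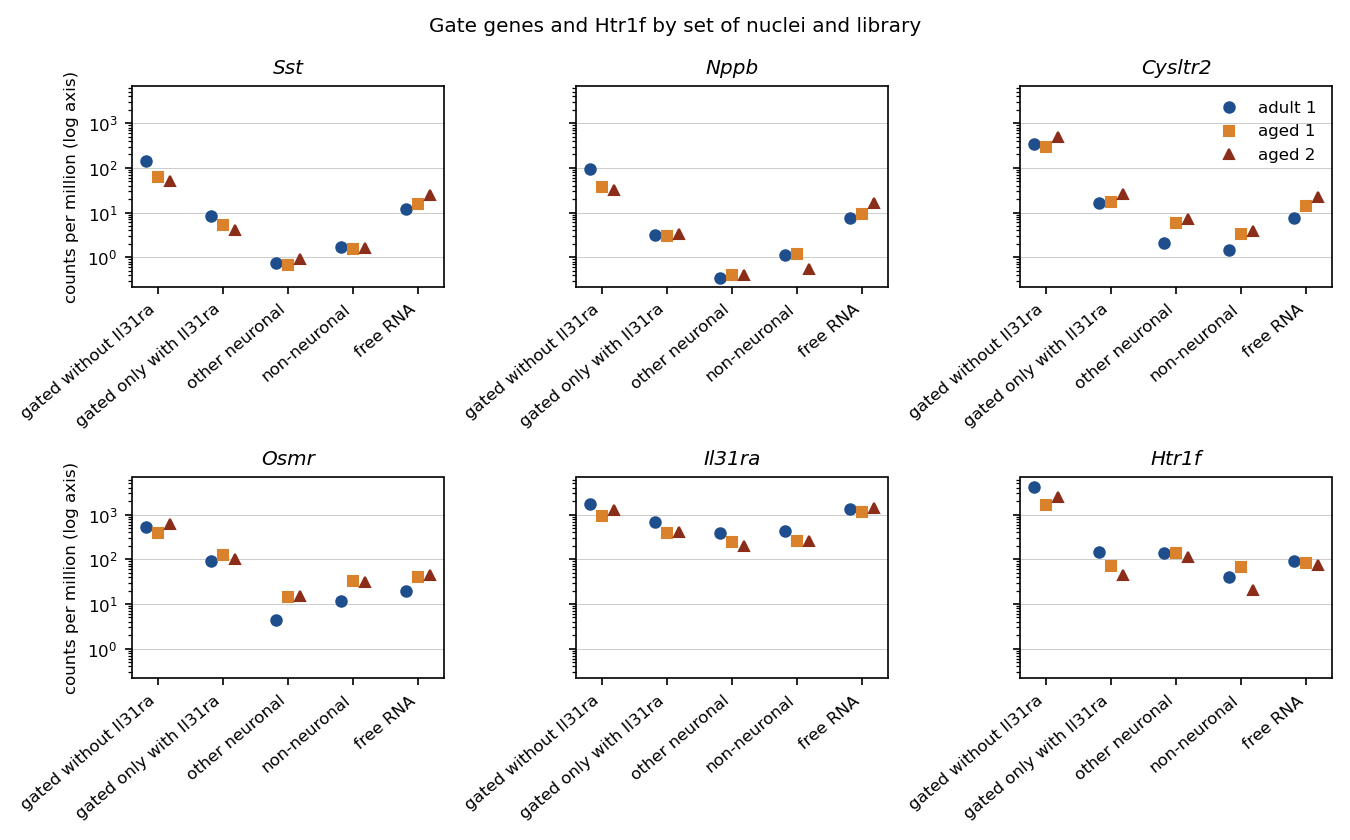
CPM (log axis) of the 5 gate genes and Htr1f in gated nuclei that met the gate without Il31ra, gated nuclei that met it only with Il31ra, other neuronal nuclei, non-neuronal nuclei and free RNA, with 1 point per library. Il31ra in free RNA (1342, 1122 and 1396 CPM) lies above the gated nuclei that needed it (683, 384 and 408 CPM), while Htr1f, which the gate did not use, is highest in the first set in every library.

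Htr1f separated the 2 kinds of gated nuclei. In the nuclei that met the gate without Il31ra it stood at 4252, 1648 and 2529 CPM. In the gated nuclei that needed Il31ra it stood at 149, 72.2 and 45.6 CPM, and in the other neuronal nuclei at 139, 136 and 114 CPM. The first set lay above both others in all 3 libraries, and the second lay below the other neuronal nuclei in both aged libraries. A Htr1f UMI was seen in 88.2%, 64.2% and 79.5% of the first set, 23.0%, 24.3% and 25.7% of the second and 22.4%, 21.8% and 22.0% of the other neuronal nuclei.

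Jak1, the kinase that carries the signal of Il31ra and Osmr, was at 1981, 859 and 1198 CPM in the nuclei that met the gate without Il31ra. It was at 319, 299 and 283 CPM in those that needed Il31ra and at 212, 256 and 188 CPM in the other neuronal nuclei. Nts (neurotensin, a peptide of these neurons) was at 64.1, 29.1 and 44.1 CPM in the first set and at 4.1, 3.5 and 2.9 CPM in the second. S1pr1, a receptor of sphingosine 1-phosphate, was at 70.3, 35.8 and 55.8 CPM against 12.8, 14.2 and 9.1 CPM. The set without Il31ra was the higher one in every library for these 3 genes.

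Of 15 further itch neuron genes outside the gate, 13 were above the other neuronal nuclei in all 3 libraries in the set without Il31ra, with a median ratio of 2.69. In the nuclei that needed Il31ra 10 of 15 were, with a median ratio of 1.35, and 12 of 15 were higher in the first set than in the second in all 3 libraries. Trpv1, the capsaicin and heat channel, was at 187, 159 and 169 CPM in the first set, 125, 98.6 and 129 CPM in the second and 68.7, 59.3 and 63.2 CPM in the other neuronal nuclei. Plcb3, the phospholipase that couples itch receptors to that channel, was at 293, 288 and 289 CPM in the first set and 139, 150 and 154 CPM in the other neuronal nuclei. Trpa1, the irritant channel, hardly separated the sets, at 17.4, 24.6 and 26.3 CPM in the first and 12.3, 22.2 and 22.0 CPM in the other neuronal nuclei. These ratios describe sets that were cut from the same counts, and were not tested. Other lists held such genes too. In the set without Il31ra, 9 of 17 cytokine receptor and JAK-STAT genes were above the other neuronal nuclei in all 3 libraries. So were 8 of 28 sensory ion channels and 3 of 17 neuropeptides and granins. Over all gated nuclei 13 of the 15 itch genes were, against 11, 7 and 11 in these lists. The lists share some members with the 15, and no share over all genes is given here.

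**Figure D2:**
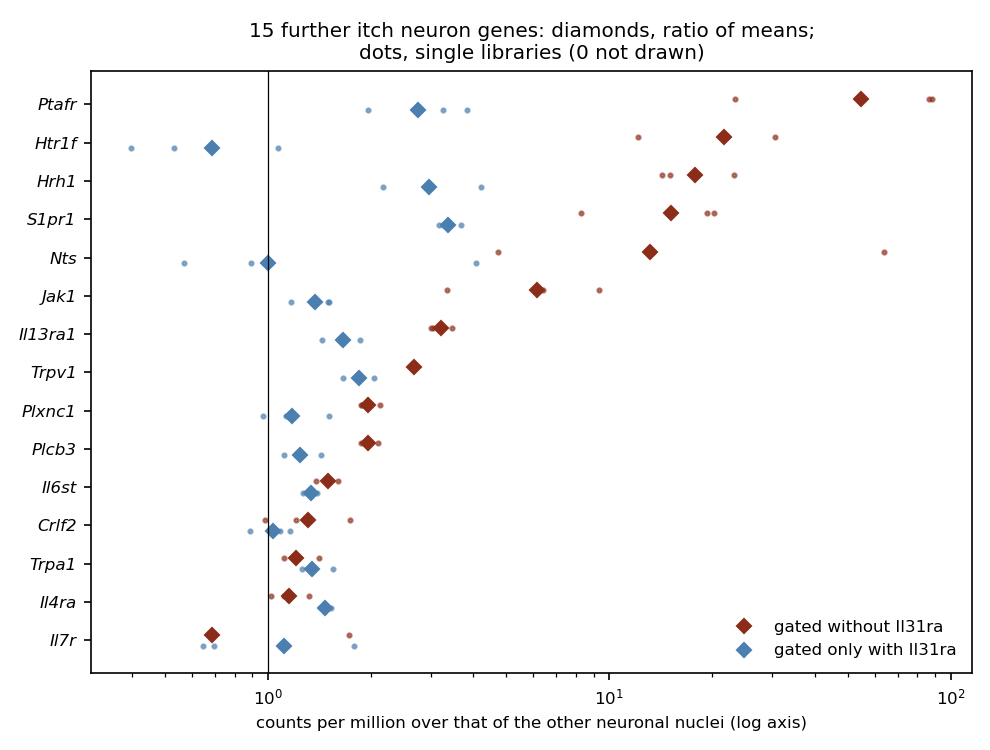
Ratio of the CPM of 15 itch neuron genes outside the gate to that of the other neuronal nuclei (log axis). Shown are gated nuclei that met the gate without counting Il31ra and gated nuclei that met it only with Il31ra. Diamonds give the ratio of the means over 3 libraries and dots single libraries. Ptafr, Htr1f, Hrh1, S1pr1 and Nts lie farthest to the right in the set without Il31ra.

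Genes outside the gate were ranked by the ratio of mean CPM over the other neuronal nuclei. A minimum of 10 UMIs in every library was set on the gated nuclei (15592 genes). For the set without Il31ra it was set on that set (10158 genes, gate genes included). Of the leading 20 genes, 10 were also among the leading 20 of the set without Il31ra. That set is part of the gated nuclei and is compared with the same nuclei, so overlap is built in. Gm40538, a long noncoding RNA gene (chr12:90399667-90408824), led both, at 8.27, 12.0 and 16.6 CPM in gated nuclei and 0.22, 0.29 and 0.13 CPM in the other neuronal nuclei. Olig3 (chr10:19356533-19358604), a transcription factor of spinal cord development, was at 2.28, 3.89 and 4.92 CPM against 0.16, 0.36 and 0.27 CPM. Ptafr, the receptor of platelet activating factor, was at 3.52, 3.38 and 5.91 CPM against 0.24, 0.57 and 0.31 CPM, and P2rx2, an ATP-gated channel, at 6.27, 6.46 and 10.7 CPM against 0.78, 1.26 and 1.03 CPM. All 4 were higher still without Il31ra in the gate.

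The leading 20 also held genes of blood vessels and of other non-neuronal cells. Edn1, the endothelin 1 gene of endothelial cells, was at 5.99, 4.41 and 1.41 CPM in gated nuclei and 0.16, 0.18 and 0.09 CPM in the other neuronal nuclei, but at 0.70, 0.56 and 0 CPM in the set without Il31ra. Clec14a, an endothelial lectin, was at 1.24, 4.51 and 2.53 CPM in gated nuclei and at 0.70, 0 and 0 CPM in that set. The summed level of 8 fibroblast markers was 445, 580 and 491 CPM in gated nuclei, 251, 394 and 170 CPM in the set without Il31ra and 157, 144 and 79.2 CPM in the other neuronal nuclei. The neuron gate asks for more UMIs of pan-neuronal genes than of 55 genes that include these markers. Gated nuclei were not held to it, so part of their excess of non-neuronal RNA over the other neuronal nuclei is built in. None of the fibroblast, endothelial and mural (10 genes) or immune (11 genes) markers was at 0 in the gated nuclei of any library. In the adult library none was at 0 in the other neuronal nuclei either, so this does not set the gated nuclei apart. For the levels given above, the nuclei are called gated nuclei here.

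Passing the gate went with depth. Of nuclei under 3000 UMIs 1.44%, 3.07% and 2.15% were gated. Of those with 30000 UMIs or more 16.3%, 24.5% and 21.5% were. The median gated nucleus held 13417, 11633 and 16900 UMIs. Gate sums lay close to the threshold for many nuclei, with a median of 10, 9 and 12 UMIs, and 67, 64 and 27 nuclei sat exactly at 4 UMIs while 97, 77 and 35 that met the other conditions had 3. A further 2158, 534 and 338 nuclei held 4 or more Il31ra UMIs and no other gate gene.

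**Figure D3:**
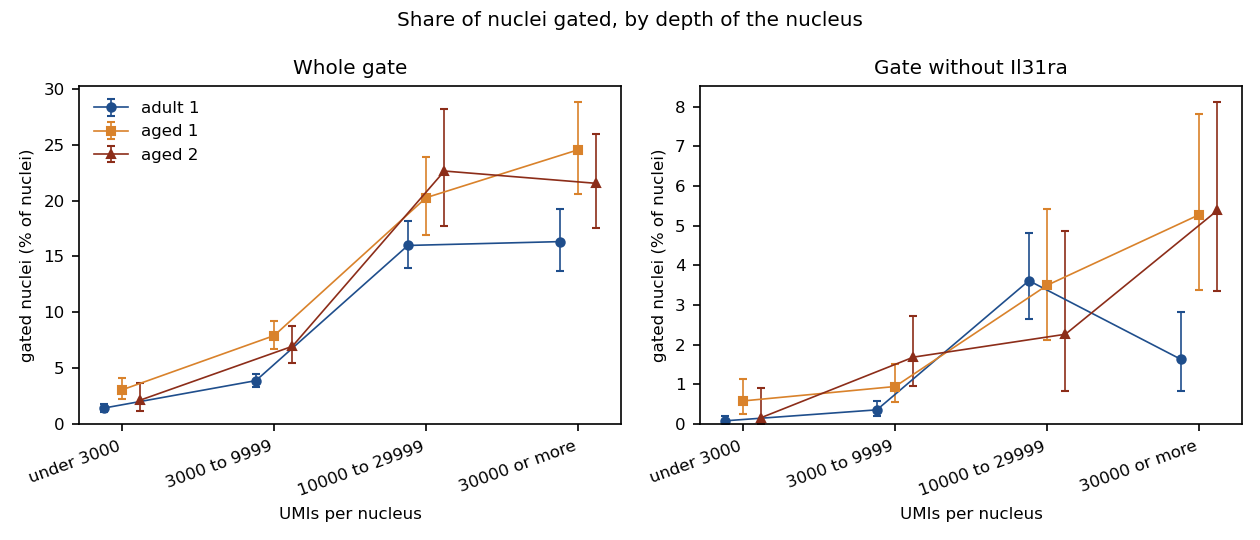
Gated nuclei as a percentage of nuclei with at least 0.5% Malat1, by UMIs per nucleus, for the whole gate (left) and the gate without Il31ra (right), with exact 95% binomial intervals. In the whole gate every library climbs from under 5% in the shallowest bin to over 15% in the deepest, and the adult library lies lowest in the deepest bin of both panels.

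The gated share was larger in both aged libraries. Gated nuclei made up 12.4% of neuronal and gated nuclei together in adult ganglia (exact 95% interval 11.5 to 13.4%). The aged libraries stood at 20.7% (18.9 to 22.6%) and 19.9% (17.6 to 22.4%). The aged mean of 20.3% ± 0.575 (SD, n = 2) was 1.63 times the adult value. The exact two-sided permutation test over the 3 libraries gave p = 0.333, the smallest p that 1 against 2 libraries allow. Thinned to 2000 UMIs per nucleus the shares were 3.27%, 3.74% and 4.76% and the ratio was 1.30 (exact permutation p = 0.667). Without Il31ra in the gate they were 1.78%, 3.73% and 4.20% (ratio 2.23). A higher share of these nuclei and fewer other neurons cannot be told apart. Outside the gate, Osmr was seen more often in both aged libraries, in 4.34%, 12.1% and 14.8% of the other neuronal nuclei. Cysltr2 was seen in 2.43%, 6.98% and 10.8%, Sst in 0.93%, 0.91% and 1.78%, and Il31ra less often (85.0%, 75.9% and 78.0%). Nuclei that met the gate sum and gene minimum but failed on genes of other neurons numbered 174, 169 and 151. Gated nuclei numbered 550, 401 and 223. The part of this wider detection in the larger share was not tested.

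Some properties of the libraries bear on the age comparison. Despite the male labels, Xist, the RNA of the inactive X chromosome, stood at 1321, 877 and 863 CPM in gated nuclei, with a UMI in 503 of 550, 345 of 401 and 191 of 223. The Y-linked genes Uty (32, 10 and 7 UMIs), Kdm5d (12, 5 and 2 UMIs) and Eif2s3y (1, 1 and 0 UMIs) were near 0 in every library. Malat1 made up 4.24% of the UMIs of gated adult nuclei and 1.45% and 1.43% in the aged ones. Meg3, a nuclear long noncoding RNA, was at 9453, 4435 and 4786 CPM, and Ddx3y, another Y-linked gene, at 263, 128 and 79 UMIs. Meg3, Xist and Ddx3y were all called lower in the age comparison (adjusted p = 0.00886, 0.0252 and 0.0252 by edgeR). The part of sex and of RNA quality in the differences below was not tested.

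UMIs of gated nuclei were summed per library (10518614, 9759466 and 7106743 UMIs) and aged and adult sums were compared with edgeR's quasi-likelihood test. Of 18030 genes tested outside the rule, 427 (2.37%) passed a Benjamini-Hochberg adjusted p of 0.05. Of these 84 (0.466%) were higher and 343 (1.9%) lower in aged libraries. In the set without Il31ra 12456 genes were tested and 163 (1.31%) called. Of the 427, 380 were tested there and 99 called, on UMIs that are part of the same sums. The calls there include Samt1c, Samt1, Samt1b and Samt1d, whose UMIs all came from 1 of 76 adult nuclei (Samt1c adjusted p = 5.17e-23 by edgeR). The part of single nuclei in the other calls of that set was not tested. With 1 adult library, a difference of age and a difference of that library cannot be told apart, and how many mice stand behind a sum is unknown.

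Among the 10 largest rises, Sprr1a, a gene induced in DRG neurons by axon injury, had 0 UMIs in the adult sum and 73 and 37 in the aged sums (0, 7.48 and 5.21 CPM). Both aged libraries lay above the adult one. Over the 3 counts that a 0 in the adult sum allows, the aged libraries together were at least 22.9-fold higher, the first alone at least 26.2-fold and the second alone at least 18.3-fold (edgeR log2 difference 8.80, SE 1.08, adjusted p = 0.0116). Those UMIs came from 18 of 401 and 6 of 223 nuclei, and 1 nucleus held 33 of the 73 and another 27 of the 37. The bounds treat each UMI as independent, so for UMIs gathered in few nuclei they are not strict lower limits. Igha, the heavy chain of immunoglobulin A made by plasma cells, had 0, 140 and 48 UMIs (adjusted p = 0.0152 by edgeR). On the same floor the aged libraries together were at least 39.1-fold higher, the first alone at least 50.3-fold and the second alone at least 23.7-fold. Free RNA held it at 1.48, 65.0 and 104 CPM, also higher in both aged libraries.

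The other 8 were Gm15433, ENSMUSG00000079190, Gm7592, Olfr1062, Gm2619, Csprs, EU599041 and 4933430M04Rik. These genes had at most 10 UMIs in the adult sum and 26 to 109 in each aged sum. Csprs, part of a repeated gene cluster with near-identical copies that make its count uncertain, had 5, 59 and 53 UMIs, a ratio of 14.0 (counting interval 5.81 to 43.9). Olfr1062, listed as an olfactory receptor, had 2, 35 and 42 UMIs in gated nuclei and 5.64, 125 and 103 CPM in free RNA.

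Among the 10 largest falls, Bc1, a small noncoding RNA of neuronal dendrites (chr7:144914470-144914637), was at 723 CPM in the adult sum and at 11.4 and 8.16 CPM in the aged sums (log2 difference -6.39, SE 0.18, adjusted p = 1.74e-05 by edgeR). UMIs were found in 478 of 550 adult nuclei but in 67 of 401 and 39 of 223 aged ones. Free RNA differed alike, at 1125, 21.5 and 15.8 CPM. Gm48594, a long noncoding RNA, fell from 206 to 3.28 and 3.52 CPM, and in free RNA the values were 352, 33.5 and 33.8 CPM. Dsp, the desmosomal protein desmoplakin, had 199, 4 and 2 UMIs in gated nuclei and 539, 0.63 and 1.66 CPM in free RNA. H2ac18, a histone gene, had 50, 1 and 0 UMIs. For these 4 genes both aged libraries were lower than the adult one in all 5 other neuron classes as well. Of the rises, both aged libraries were higher in all 5 other classes for Gm15433 and Olfr1062, and in 4 of 5 for Sprr1a, Igha, Gm7592, Csprs and 4933430M04Rik. They were in 3 of 5 for EU599041 and in 2 of 5 for ENSMUSG00000079190 and Gm2619. Several of these class values rest on few UMIs and were too low to be tested. Gm15433 had 0, 1 and 2 UMIs in the cold class, and Sprr1a 0, 2 and 1 in the peptidergic class.

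The remaining 6 falls rested on single nuclei of the adult library. All 178 UMIs of Olfr781, listed as an olfactory receptor, came from 1 of 550 nuclei. The UMIs of Samt1c (86), Samt1 (49), Samt1b (48) and Samt1d (39), near-identical neighbours on the X chromosome whose reads the counting may split, all came from 1 further nucleus. Of the 43 UMIs of Gm12290, 38 lay in 1 nucleus. Both aged sums held 0 UMIs of these genes apart from 1 UMI of Samt1d. Over all 427 called genes, 14 drew more than 50% of the UMIs of their higher group from 1 nucleus, all 14 of them lower in aged libraries, and the median share was 3.65%. The higher group is the adult library alone for a fall but both aged libraries summed for a rise. A rise therefore passes 50% less easily, and the direction of the 14 is in part built in. Sprr1a did not pass, though 1 nucleus held 27 of its 37 UMIs in the second aged library.

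**Figure D4:**
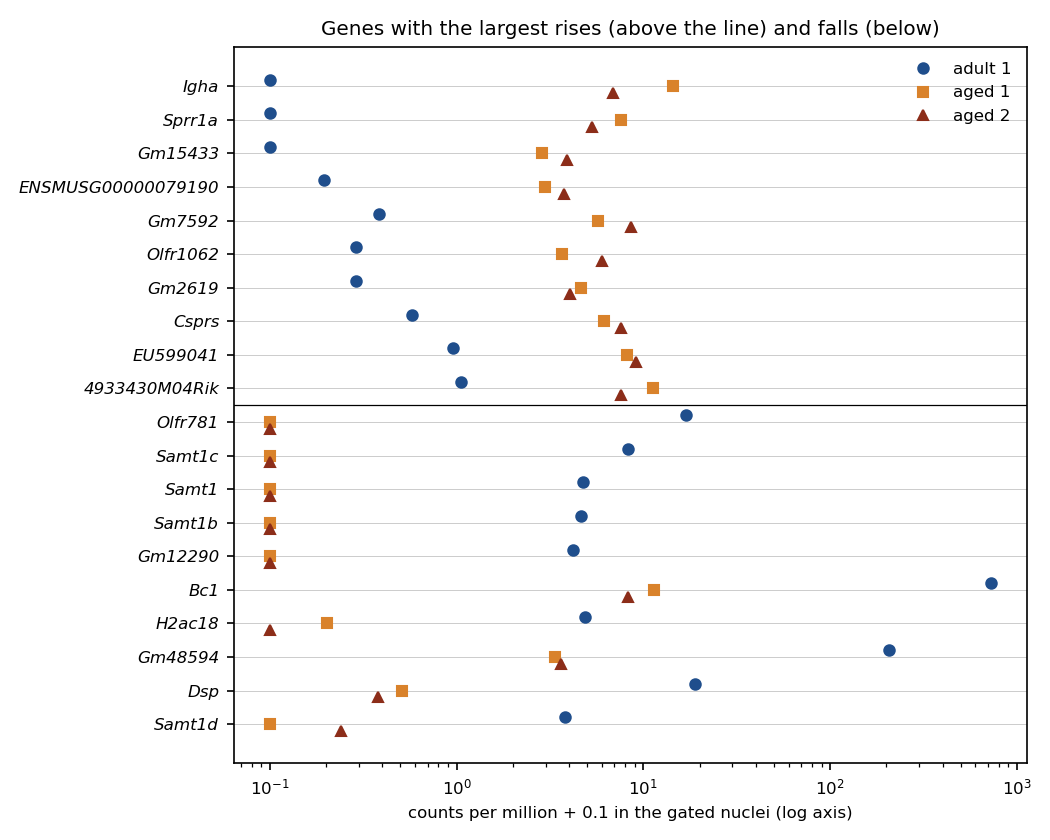
CPM + 0.1 (log axis) in the summed gated nuclei of each library for the 10 called genes with the largest rises and the 10 with the largest falls. In every row both aged libraries lie on the same side of the adult one, and points at 0.1 stand for 0 UMIs.

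**Figure D5:**
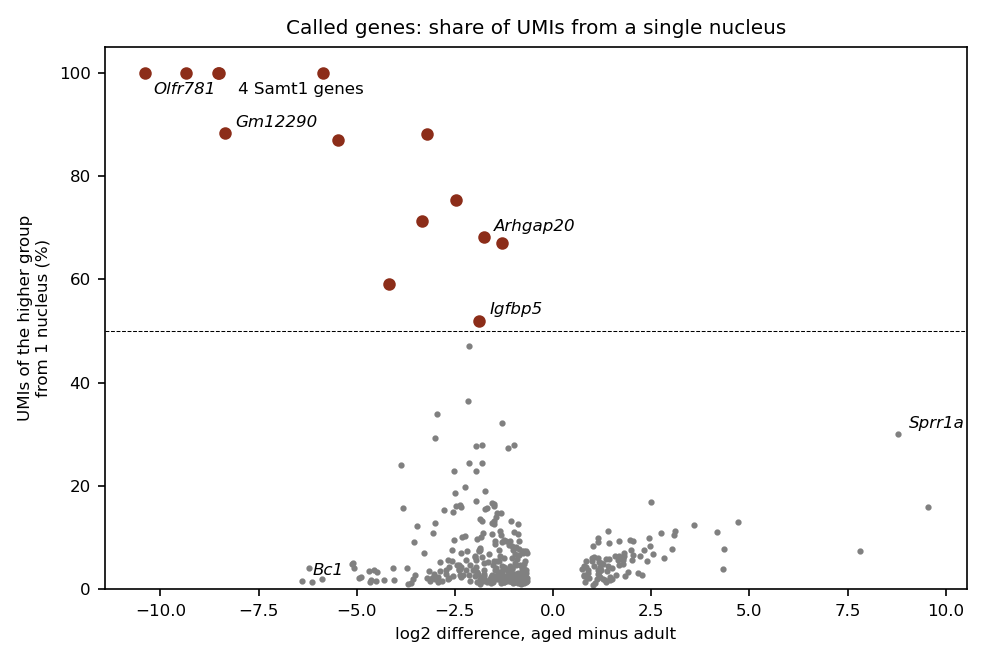
For each of the 427 called genes, the log2 difference between aged and adult sums (horizontal) and the percentage of UMIs of the higher group that came from 1 nucleus (vertical). Red points mark the 14 genes above 50%, among them Olfr781, 4 Samt1 genes and Arhgap20, all to the left of 0. The higher group is the adult library alone to the left of 0 and both aged libraries summed to the right. Genes on the right therefore pass 50% less easily.

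No gene of the 15 itch neuron genes outside the gate passed the test, beside 2.37% of all genes (6 higher and 9 lower in sign, median log2 difference -0.26 against 0.0046 over all genes tested). Htr1f was at 709 CPM in the adult sum and 360 and 497 CPM in the aged sums (log2 difference -0.93, SE 0.19, adjusted p = 0.0609 by edgeR). Jak1 was at 546, 402 and 449 CPM (-0.56, SE 0.14, adjusted p = 0.0873). The adult library was highest for both. With the UMIs of the highest nucleus of each gene left out, an alternative chosen after seeing the data, edgeR's adjusted p was 6.38e-04 for Htr1f and 0.0337 for Jak1. That setting called 1447 of 17311 genes tested, against 427 of 18030 in the main test. Il31ra, Sst and Nppb were not tested, since they chose the nuclei.

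Of 14 neuropeptides and granins tested, 4 fell and none rose, beside 1.9% lower of all genes (median log2 difference -0.46). Tac1, the substance P precursor, was at 289 CPM in the adult sum and at 154 and 158 CPM in the aged sums (log2 difference -1.09, SE 0.12, adjusted p = 0.00808 by edgeR). Calca, the gene of calcitonin gene-related peptide, was at 768, 463 and 456 CPM (-0.95, SE 0.12, adjusted p = 0.0137). Nmb (neuromedin B, a peptide of itch and pain neurons) at 88.3, 57.1 and 55.7 CPM and Cartpt at 23.7, 11.9 and 6.89 CPM were the other 2. Calca and Tac1 in free RNA went the other way, at 1010, 1429 and 1586 CPM and at 245, 326 and 396 CPM. In the set without Il31ra none of the 10 peptides tested passed, beside 1.31% of all genes, and Tac1 differed by -0.95 (adjusted p = 0.226 by edgeR). There Calca was at 403, 386 and 156 CPM, Nmb at 80.8, 67.2 and 34.9 CPM and Cartpt at 4.18, 4.48 and 0.77 CPM. Pcsk2, a prohormone convertase, was the only one of 10 peptide processing genes to fall, beside 1.9% of all genes, from 698 to 450 and 436 CPM. It was not called in the set without Il31ra, at 637, 584 and 489 CPM.

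Of 28 sensory ion channel genes tested, 5 fell and none rose, beside 1.9% lower of all genes (median -0.20). They were Trpm3, a heat channel (1682, 1045 and 959 CPM), Piezo2, the touch channel (1035, 744 and 708 CPM), Asic2, an acid-sensing channel (1432, 1018 and 965 CPM), Kcnq3, a potassium channel (134, 93.3 and 88.6 CPM), and Ano1, a calcium-activated chloride channel (28.5, 14.2 and 11.8 CPM). The aged libraries were lower than the adult one for each. In the set without Il31ra none of the 28 passed, Kcnq3 turned its direction (1.01, adjusted p = 0.253 by edgeR) and Asic2 was at 802, 911 and 854 CPM. Trpm3 (1463, 1039 and 1211 CPM) and Ano1 (13.9, 2.80 and 2.32 CPM) were lower there in both aged libraries, and Piezo2 was at 439, 444 and 322 CPM. Of 12 pan-neuronal genes 3 fell too, beside the same 1.9% (Nefl, Prph and Stmn2), the median of the list was -0.61 and all 12 were lower in sign, so that the level of neuronal RNA in the sums moved with these groups, and its part was not tested.

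Of 34 receptors of the G-protein coupled family, Sstr2, a somatostatin receptor, fell from 12.6 to 3.996 and 3.80 CPM and P2ry1, an ADP receptor, from 29.4 to 18.4 and 16.9 CPM, and none rose. Of 23 phospholipase C and G-protein signalling genes, Dgkh, a diacylglycerol kinase, fell from 2867 to 1853 and 2088 CPM. Of 26 transcription factors Klf7 fell, and of 14 growth factor receptors Ntrk2, the receptor of BDNF, fell from 252 to 149 and 145 CPM. With 1.9% of all genes called lower, these are counts of 1 or 2 genes a list near that background. P2ry1 (17.4, 9.52 and 0.77 CPM), Dgkh (4752, 2871 and 3280 CPM), Klf7 (1307, 993 and 1123 CPM) and Ntrk2 (82.2, 67.2 and 40.3 CPM) did not pass in the set without Il31ra but were lower in both aged libraries, and Sstr2 was too low there to be tested. Other members were called there, beside 1.31% of all genes. They were the kinase Prkcb (85.0, 45.4 and 12.4 CPM) and the phosphodiesterase Pde4b (87.8, 54.3 and 17.0 CPM), both lower in aged libraries, and of the peptide processing genes Cadps2, a priming factor of dense core vesicles (25.8, 110 and 58.1 CPM), higher in aged libraries. In the set without Il31ra, Mrgpra3, the chloroquine receptor of another itch neuron class, was at 10.4, 73.9 and 51.1 CPM (log2 difference 2.43, adjusted p = 1.25e-04 by edgeR) and was the only receptor of the list called there. Over all gated nuclei it was at 8.37, 20.7 and 16.7 CPM (adjusted p = 0.0893).

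Interferon-inducible genes were the list with most rises. Of 28 tested, 5 rose and none fell, beside 0.466% higher of all genes (median log2 difference 0.55, 23 of 28 higher in sign). Nlrc5, the activator of MHC class I genes, was at 9.51 CPM in the adult sum and 38.5 and 30.96 CPM in the aged sums (log2 difference 1.67, SE 0.21, adjusted p = 0.0133 by edgeR). The guanylate-binding proteins Gbp2 (3.71, 31.1 and 15.2 CPM), Gbp4 (2.38, 16.6 and 10.6 CPM) and Gbp6 (3.33, 20.9 and 14.6 CPM) and the interferon-inducible GTPase Tgtp2 (1.43, 14.0 and 9.15 CPM) rose as well. The list's summed level was 523, 895 and 742 CPM in gated nuclei, 485, 649.8 and 412 CPM in the set without Il31ra and 937, 1981 and 1644 CPM in non-neuronal nuclei. In the set without Il31ra none of the 22 list genes tested passed, beside 1.31% of all genes, and the list median was -0.05. Of the 5 that rose over all gated nuclei, Nlrc5 (13.2, 34.2 and 27.1 CPM) was higher there in both aged libraries. Tgtp2 (0.70, 8.96 and 3.87 CPM) was too, on 1, 16 and 5 UMIs. Gbp6 (4.88, 16.2 and 5.42 CPM) had 7, 29 and 7 UMIs, so its count in the second aged library equalled the adult one. Gbp2 (6.96, 24.1 and 2.32 CPM) was higher in 1 aged library, and Gbp4 was too low to be tested. Satellite glial markers (8 genes, sum 710, 993 and 741 CPM), fibroblast markers (sum 445, 580 and 491 CPM) and immune markers (11 genes, sum 53.2, 75.7 and 56.3 CPM) in gated nuclei were also higher in both aged libraries, and their part in this result was not tested. Of the endothelial and mural markers 5 were higher and 5 lower in sign, and of the Schwann cell markers 8 were higher and 4 lower. Single markers differed from the sums above. Fabp7, a fatty acid binding protein of satellite glia, fell from 64.8 to 36.4 and 23.5 CPM (log2 difference -1.31, adjusted p = 0.034 by edgeR). It was the only satellite glial marker to pass, beside 1.9% lower of all genes, while 7 of the 8 were higher in sign. Slc47a1, a transporter of fibroblasts, fell from 48.6 to 10.0 and 18.9 CPM (-1.98, adjusted p = 0.0225). It was the only fibroblast marker to pass, beside the same 1.9%, with 4 of the 8 higher and 4 lower in sign. In the set without Il31ra 1 satellite glial and 1 Schwann cell marker passed, beside 1.31% of all genes, and the list medians were -0.41 and -0.16.

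Of 16 injury and regeneration genes, Sprr1a and Csf1, the growth factor of macrophages, rose and none fell, beside 0.466% higher of all genes (median -0.06). Csf1 was at 10.8, 27.6 and 23.9 CPM (log2 difference 1.05, SE 0.20, adjusted p = 0.0467 by edgeR). Sprr1a was also called in the set without Il31ra, with 0, 19 and 27 UMIs (adjusted p = 0.00402 by edgeR), where the 19 came from 6 of 67 nuclei and all 27 from 1 of 44, and Csf1 was not, at 7.66, 20.2 and 12.4 CPM (adjusted p = 0.922). None of 17 immediate early and heat shock genes passed (median 0.04).

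The age difference of gated nuclei was set against the mean age difference of 5 other neuron classes, in 1 fit with the library as a block. The classes, gated on their own genes, were the Mrgprd (382 nuclei), peptidergic (767), cold (190), Tafa4 (1196) and large-fiber (920) classes. Of 17416 genes tested 1 (0.00574%) passed, and 738 had an unadjusted p under 0.05. The gene was Arhgap20, a GTPase-activating protein (chr9:51765337-51853856). It was at 98.4 CPM in gated nuclei of the adult library and 32.5 and 34.5 CPM in the aged ones, and in the Tafa4 class at 43.7, 50.3 and 75.8 CPM (log2 difference of the differences -2.21, SE 0.22, adjusted p = 0.00183 by edgeR). One adult nucleus held 706 of its 1035 UMIs. With the highest nucleus of each gene left out, the difference was -0.58 (adjusted p = 0.834), and in the set without Il31ra it was 0.38. Kcnt2, a sodium-activated potassium channel, came next, at 81.7, 171 and 210 CPM in gated nuclei (log2 difference of the differences 1.92, adjusted p = 0.0566 by edgeR). In the set without Il31ra it was at 90.5, 72.8 and 75.9 CPM, lower in both aged libraries.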

How the data were processed

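The authors aligned the reads and counted transcripts with Pipseeker, and deposited raw UMI counts per gene and barcode for 3 libraries, aligned to mm10 per the labels. Strand handling and the annotation are not given in the sources used here. Total counts were 167664164, 95647106 and 69045987 UMIs. Barcodes with more than 1000 genes were kept, which the study's methods also use; no doublet caller was run, and the clusters the authors removed as low quality or doublets were not removed here. Counts of gated nuclei were summed per library, scaled by TMM, filtered with filterByExpr (18030 genes) and tested with edgeR 4.0.16 in R 4.3.3 (prior count 0.125, 1 residual degree of freedom, Benjamini-Hochberg over all genes). The 13 genes of the rule were left out of every count. Genes named are those of the lists that passed, the 10 largest called changes each way with 20 or more UMIs, and the 20 highest ratios to other neuronal nuclei. The members, the gate and the gene lists were chosen with earlier results of these data known, and 1 gene of the lists is not reported here. Positions are from GENCODE M21, which held 32098 of 32227 gene identifiers. Samples count as replicates of an age by their labels, so p-values measure the spread between these libraries. DESeq2 1.42.0, other scalings, filters and gates were tried as alternatives. The study's test over single nuclei was not used, since nuclei of 1 library share their source.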

Additional observations from a re-analysis of the deposited data

Results flagged for a closer look

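Arhgap20 differed in its age difference between gated nuclei and the other neuron classes (log2 difference -2.21, adjusted p = 0.00183 by edgeR's interaction test). In gated nuclei it was lower in both aged libraries, and in each of the Mrgprd, peptidergic, cold and Tafa4 classes it was higher in both. One adult nucleus held 68.2% of its adult UMIs. With the highest nucleus of each gene left out the difference was -0.58 (adjusted p = 0.834 by edgeR), and in the set without Il31ra it was 0.38.

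Il31ra was abundant in barcodes that were not tested for age as nuclei. In barcodes under 100 UMIs it was at 1342, 1122 and 1396 CPM (adult library, then the aged ones), rank 43, 61 and 45 of all genes there.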

How the results depend on the processing

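Counts of called genes moved with the setting, and the cause was not tested. Against 427 called genes (84 higher, 343 lower), edgeR called 1042 with RLE scaling (275 and 767), 2009 with no filter on low counts (665 and 1344), 763 among nuclei with more than 2000 genes (173 and 590), 197 with no Malat1 minimum (28 and 169), 80 after thinning to 1000 UMIs (26 and 54), 158 with free RNA subtracted (22 and 136) and 240 with the spread shared with other classes (26 and 214). Library totals only gave 298 higher and 223 lower genes (57.2% higher against 19.7%) and moved the median of all genes to 0.21. Chosen after seeing the data were the gate without Il31ra (163, 36 higher and 127 lower), gated nuclei that passed the neuron gate (288, 23 higher) and sums without the highest nucleus of each gene (1447, 432 higher and 1015 lower, with 414 of the 427). DESeq2 (353) and the stricter gate (440) stayed within 1.5 times in count, with 287 and 237 of the 427. Of the 427, 195 were called with no Malat1 minimum, 156 with free RNA subtracted and 61 after thinning to 1000 UMIs. Without aged replicate 1 or 2, 1 library against 1 allowed no test. All 427 genes kept their sign, which the call over 2 aged libraries that share 1 adult library nearly fixes. The test against other classes called 198 genes with no filter, 3 in the stricter gate, 3 thinned, 2 by DESeq2, 34 against the Mrgprd class only, 2 without Il31ra in the gate and 2 without the highest nuclei. The ratio of gated shares was 2.27 in the stricter gate, 1.504 with no Malat1 minimum, 1.30 thinned, 1.71 of all kept barcodes, and without Il31ra 2.23, 2.05 with over 2000 genes and 1.89 thinned, and 1.60 to 1.67 when either aged replicate was left out. Of single genes, 4 values turned sign: Ddx3y 0.35 thinned, Kcnq3 0.11 in the stricter gate and 1.01 without Il31ra, and Arhgap20 0.38 without Il31ra. No paired analysis was possible because the adult and aged groups share only replicate number 1. The gate without nuclei of 5 or more non-neuronal UMIs was not run, as it left 9, 1 and 2 nuclei.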
